A study of Homo sapiens with 4 samples.

Results

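The CDK inhibitor genes encode the proteins that hold cyclin-dependent kinases (CDKs) in check, and 8 of them were chosen by name: CDKN1A, CDKN1B, CDKN1C, CDKN2A, CDKN2B, CDKN2C, CDKN2D and CDKN3. Of the 8 names, 6 were found among the 26733 genes of the count table, and all 6 were among the 15910 genes that passed the filter on low counts. CDKN2A and CDKN2B were not analysed here. CDKs drive the cell cycle when a cyclin is bound to them. The CIP/KIP proteins p21 (CDKN1A), p27 (CDKN1B) and p57 (CDKN1C) bind whole cyclin-CDK complexes, above all those of CDK2. The INK4 proteins, among them p18 (CDKN2C) and p19 (CDKN2D), bind CDK4 and CDK6 and keep cyclin D away. CDKN3 is of another kind, a phosphatase that removes the activating phosphate from CDKs and is made mainly late in the cell cycle. In thymocytes and T cells p18 and p27 are known as brakes on proliferation.

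The cells were Jurkat, an established human line from T-cell acute lymphoblastic leukaemia. Libraries came from 2 samples that received GNE987 (25 nmol in the labels, which name no volume) and from 2 untreated samples, all at 24 h. GNE987 is a degrader: one end binds the bromodomains of BET proteins, the other recruits the VHL ubiquitin ligase, which marks them for the proteasome. No group received a vehicle or an inactive compound according to the labels, and all libraries are of 1 cell line. Jurkat cells are described as lacking the CDKN2A and CDKN2B locus, which limits them as a model of these genes and was not examined here. Polyadenylated RNA was sequenced. Whether replicates were grown as separate cultures is not stated in the labels. All p-values below therefore reflect the spread between these libraries alone, which may be technical.

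Depth was 16041022 and 17024157 counts for the treated libraries and 18441248 and 18938465 counts for the untreated libraries. Levels below are CPM, counts relative to a library size scaled with TMM factors, unless FPKM is named. Fold changes are GNE987 over untreated from edgeR's quasi-likelihood test, adjusted by Benjamini-Hochberg over all 15910 genes, with a threshold of 0.05. Untreated replicate 2 stood apart from untreated replicate 1: the chi-square of counts over genes, divided by its degrees of freedom, was 4.76 within the treated pair and 36.0 within the untreated pair. Over all genes tested 34.4% were called higher with GNE987 and 37.2% lower, the shares to set beside the marker counts that follow. Of the T-cell markers, 10 of 10 were tested, 7 of them lower and 1 higher with GNE987. Their summed level was 1567 and 1721 CPM in treated cells and 2862 and 2687 CPM in untreated cells. Summed myeloid markers, of which 3 of 5 tested rose, reached 142 and 147 CPM with GNE987, while untreated replicates 1 and 2 had 0.763 and 29.9 CPM. Most of the treated sum came from MPO (72.6 and 77.3 CPM) and ITGAM (43.1 and 40.4 CPM). Neither of them passed (adjusted p = 0.0702 and 0.0531, edgeR). The myeloid marker CD68 had 4 or 5 counts in every library. The 1 tested gene of each of the B-cell, megakaryocyte and fibroblast lists (CD79A, ITGA2B and COL1A1) rose, with summed list levels of 97.4 and 107, 7.48 and 7.46, and 8.86 and 8.91 CPM in treated cells, against 40.9 and 51.3, 0.449 and 0.839, and 1.17 and 1.93 CPM in untreated cells. KRT8 and KRT18, epithelial markers, summed to at most 0.725 CPM in any library. The part of these markers in the results below was not tested. In bulk RNA fewer cells of a type and less RNA per cell cannot be told apart.

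Transcripts of 5 of the 6 CDK inhibitor genes rose with GNE987, between 3.11-fold for CDKN2C and 5.69-fold for CDKN2D, and CDKN1C did not pass the test. Of all genes tested, 34.4% were called higher, 37.2% lower and 71.6% in either direction, so a call was common in these cells. With library size alone as the scaling 4103 genes were higher and 7164 lower, in place of 5467 and 5920. The median log2 fold change was 1.99 over the 6 genes and -0.03 over all genes tested. In the same 5 genes both treated libraries lay above both untreated ones, which held for 44.6% of all genes tested, and the opposite order for 46.6%. The plot of levels by library shows all 6 genes.

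**Figure D1:**
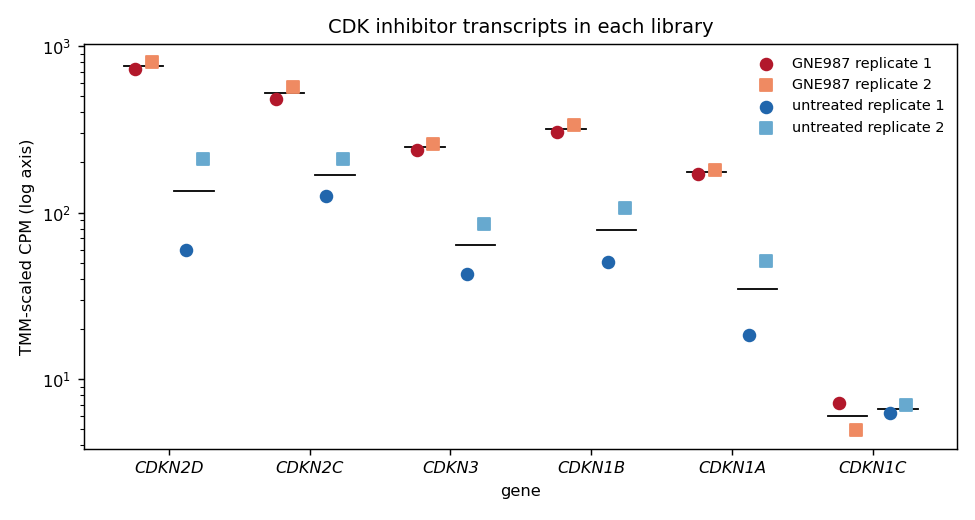
TMM-scaled CPM (log axis) of the 6 CDK inhibitor genes in each GNE987 library (left) and untreated library (right), with a line at each group's mean (n = 2). The treated libraries lie above the untreated ones for 5 genes, untreated replicate 2 lies above untreated replicate 1 for the same 5, and CDKN1C overlaps at 4.93 to 7.16 CPM.

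Among the CIP/KIP genes, CDKN1A, whose product p21 stops the cycle after DNA damage and other stress, had 172 and 179.9 CPM in GNE987 replicates 1 and 2. Untreated replicates 1 and 2 had 18.4 and 51.5 CPM. The treated libraries were alike and far above both untreated libraries, which were themselves 2.8-fold apart. Its log2 fold change was 2.33 ± 0.47 (SE; 95% interval 1.15 to 3.52; adjusted p = 0.00783, edgeR). Without untreated replicate 2 it was 3.26, without untreated replicate 1 it was 1.71, and without GNE987 replicate 2 it was 2.28 and no longer passed (adjusted p = 0.0502, edgeR). CDKN1A lies on chromosome 6 from 36676460 to 36687339, plus strand (GRCh38, GENCODE 29). The antisense gene DINOL shares 146 exonic bases with it and had 1 to 9 counts per library, against 410 to 2616 for CDKN1A.

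CDKN1B, encoding p27, the inhibitor best known for holding resting lymphocytes out of the cycle, had 303 and 334 CPM with GNE987. Untreated replicates 1 and 2 had 50.5 and 107 CPM. Every treated library was above every untreated one, with a gap wider than the spread inside either pair. The fitted change was 2.02 ± 0.36 (SE; 95% interval 1.12 to 2.92 on the log2 scale; adjusted p = 0.00511, edgeR), and 2.66 without untreated replicate 2. CDKN1B lies on chromosome 12 from 12715058 to 12722371, plus strand, and an intronic transcript on the same strand, AC008115.3, shares none of its exonic bases.

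CDKN1C, encoding p57, an imprinted CIP/KIP inhibitor, was the lowest of the 6. It had 109 and 68 counts in the treated libraries, which is 7.16 and 4.93 CPM, and 140 and 141 counts in the untreated ones, which is 6.29 and 6.96 CPM. The groups overlapped, and the treated pair spanned the untreated values. The log2 fold change was -0.13 ± 0.27 (SE; 95% interval -0.80 to 0.54; adjusted p = 0.679, edgeR), so the interval leaves room for a fall or rise smaller than those of the other 5 genes. Its sign was not fixed, at 0.07 with upper-quartile scaling and 0.09 without GNE987 replicate 2. CDKN1C lies on chromosome 11 from 2883213 to 2885773, minus strand.

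Of the genes around CDKN1C in the imprinted domain at 11p15.5, a list with 6 tested genes, 4 rose and 1 fell. Over all genes tested 34.4% rose and 37.2% fell. KCNQ1OT1, the long noncoding RNA that silences CDKN1C on the paternal allele in normal tissue, had 18.5 and 17.9 CPM with GNE987, against 0.629 and 3.11 CPM in untreated replicates 1 and 2. Per length this was 0.199 and 0.193 FPKM with GNE987, against 0.00687 and 0.0330 FPKM. CDKN1C was higher per length, with means of 2.41 FPKM in treated and 2.64 FPKM in untreated cells. The log2 fold change of KCNQ1OT1 was 3.30 ± 0.64 (SE, adjusted p = 0.00677, edgeR), 4.85 without untreated replicate 2 and 2.48 without untreated replicate 1. KCNQ1OT1 lies inside the KCNQ1 locus, and the kit did not mark strand. KCNQ1 itself had 4 counts in each treated library and 0 in each untreated library. Whether reads from KCNQ1 were counted for KCNQ1OT1 was not tested. PHLDA2, an imprinted growth regulator, had 19 and 11 counts in the treated libraries and 1 count in each untreated library (adjusted p = 0.00458). CD81, a membrane tetraspanin, rose by 1.20 ± 0.19 on the log2 scale (adjusted p = 0.00364), and TSSC4, a splicing factor, fell by 0.73 ± 0.11 (adjusted p = 0.0033, and 0.0589 without GNE987 replicate 1). The difference between CDKN1C and these neighbours was not tested. Without GNE987 replicate 1, 2 genes of the list were higher and 0 lower, of 5 tested.

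The INK4 genes were the most abundant. CDKN2D, encoding p19, had 729 and 798 CPM in GNE987 replicates 1 and 2, against 59.6 and 209 CPM in untreated replicates 1 and 2. It showed the largest change of the 6 and also the widest untreated pair, 3.51-fold apart. GNE987 over untreated, the log2 fold change was 2.51 ± 0.58 (SE; 95% interval 1.06 to 3.96; adjusted p = 0.012, edgeR), 3.69 without untreated replicate 2 and 1.80 without untreated replicate 1. It did not pass without GNE987 replicate 1 (adjusted p = 0.0576), without GNE987 replicate 2 (0.0644) or with robust estimation in edgeR (0.0584). With a treated library left out, only the untreated pair gave an estimate of the spread. CDKN2D lies on chromosome 19 from 10566462 to 10569059, minus strand.

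CDKN2C, encoding p18, the INK4 inhibitor that restrains lymphoid progenitors in mice, had 484 and 564 CPM with GNE987 and 126 and 211 CPM without. It had the smallest rise of the 5, with groups that did not overlap. Its log2 fold change was 1.64 ± 0.27 (SE; 95% interval 0.96 to 2.31; adjusted p = 0.00401, edgeR). CDKN2C lies on chromosome 1 from 50960745 to 50974633, plus strand, and no annotated gene overlaps it.

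CDKN3, the phosphatase, had 239 and 257 CPM in treated cells and 42.6 and 85.1 CPM in untreated cells. The treated pair differed by 1.08-fold and the untreated pair by 2.0-fold. On the log2 scale the change was 1.96 ± 0.33 (SE; 95% interval 1.12 to 2.79; adjusted p = 0.00449, edgeR), and 2.55 without untreated replicate 2. CDKN3 lies on chromosome 14 from 54396849 to 54420218, plus strand.

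**Figure D2:**
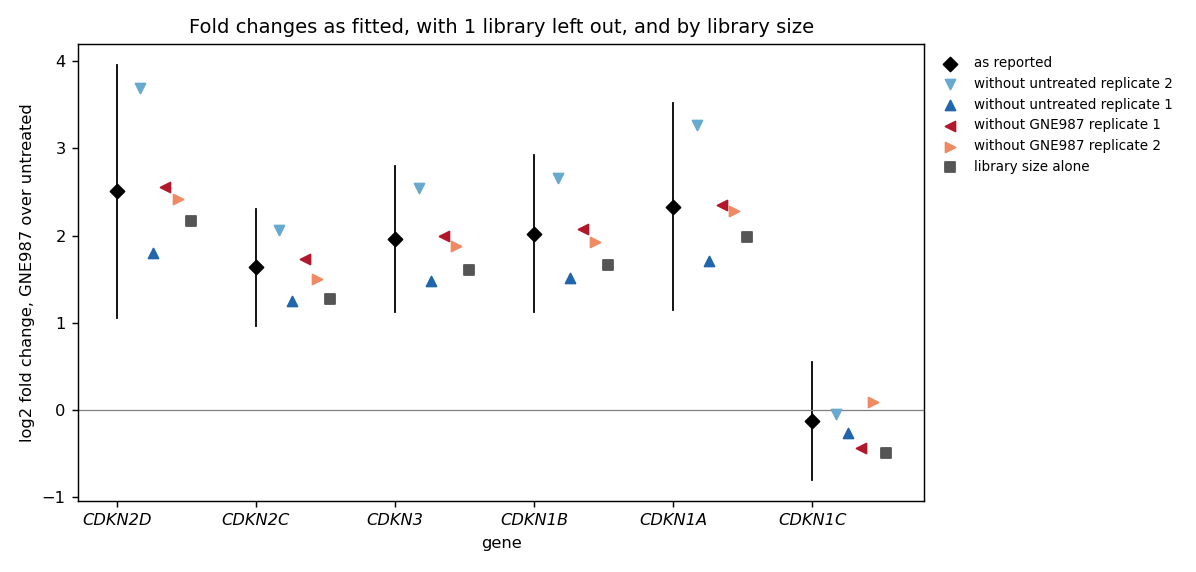
Log2 fold change, GNE987 over untreated, of the 6 genes as fitted (diamonds, with 95% intervals), with each library left out (triangles) and with library size alone as the scaling (squares). The 5 rising genes stay above 1 in every setting drawn, from 1.25 for CDKN2C to 3.69 for CDKN2D, and CDKN1C lies around 0.

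The 5 rises kept their direction under each of 12 alternatives of scaling, filter, test and left-out library, and 5 of 5 passed in 9 of them. With library size alone the log2 fold changes were 2.16 for CDKN2D, 1.98 for CDKN1A, 1.66 for CDKN1B, 1.60 for CDKN3 and 1.27 for CDKN2C, while the median of all genes moved by -0.37. Absolute levels were not set by a spike-in. The authors' deposited table listed log2 fold changes of 2.52 for CDKN2D, 2.34 for CDKN1A, 2.03 for CDKN1B, 1.97 for CDKN3 and 1.64 for CDKN2C. Its adjusted p-values ran from 9.38e-10 for CDKN3 to 0.00389 for CDKN2D, and for CDKN1C the authors' deposited table listed -0.13 with an adjusted p of 0.803.

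The level in untreated replicate 2 was inside the interval bounded by the treated mean and untreated replicate 1 in each of the 5 rising genes, at nearly the same fraction of the way. The distance covered, in CPM, ran from 20.7% for CDKN3 to 21.2% for CDKN2D. Among the 1718 genes that were called at least 2-fold higher with a mean of at least 10 CPM, the median was 19.4% and the middle range, from the 25th to the 75th percentile, was 16.4% to 22.1%. The values of the 5 genes lay inside that range. Falling genes were not summarised in this way, but the displacement was not confined to rising ones. Untreated replicate 2 lay toward the treated mean by 18.8% for MYC, 18.6% for CDK4 and 28.3% for CDK6, which fell. For TSSC4, which also fell, the value was -2.99%. Of the 5, genes with the larger change also had the larger gap between untreated libraries, from 1.67-fold for CDKN2C to 3.51-fold for CDKN2D, and the larger standard error. At a nearly constant fraction a larger change gives a larger gap by arithmetic, so this is no separate result. A gap of at least 1.5-fold in the same direction was found in 20.1% of all genes tested. The cause of this displacement was not tested.

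Promoter windows of the rising genes are shown so that the start regions of 5 transcripts that moved the same way can be set side by side. Each window holds 250 bases before and 50 bases after a RefSeq start (GRCh38.p14), in the direction of the gene. Table entries matched 5 of the 6 genes, with 3 starts for CDKN2C, of which the second is shown because it holds the most motif matches. CDKN1C was not matched. Capitals mark matches to 5 motifs, searched on either strand, and neighbouring or overlapping matches run together. The E-box was searched as CACGTG. The GC box was searched as GGGCGG. The CCAAT box was searched by those 5 letters. The CHR element was searched as TTTGAA. The TATA box was searched as TATAAA. The windows are chr6:36678464-36678763 for CDKN1A (plus strand), chr12:12717118-12717417 for CDKN1B (plus), chr1:50968456-50968755 for CDKN2C (plus), chr19:10568930-10569229 for CDKN2D (minus) and chr14:54396757-54397056 for CDKN3 (plus).
CDKN1A: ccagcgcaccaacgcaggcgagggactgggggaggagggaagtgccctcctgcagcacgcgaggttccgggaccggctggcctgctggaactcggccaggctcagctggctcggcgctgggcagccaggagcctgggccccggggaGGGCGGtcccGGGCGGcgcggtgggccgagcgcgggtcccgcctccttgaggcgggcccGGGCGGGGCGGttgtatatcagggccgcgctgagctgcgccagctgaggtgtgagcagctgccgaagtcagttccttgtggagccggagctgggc
CDKN1B: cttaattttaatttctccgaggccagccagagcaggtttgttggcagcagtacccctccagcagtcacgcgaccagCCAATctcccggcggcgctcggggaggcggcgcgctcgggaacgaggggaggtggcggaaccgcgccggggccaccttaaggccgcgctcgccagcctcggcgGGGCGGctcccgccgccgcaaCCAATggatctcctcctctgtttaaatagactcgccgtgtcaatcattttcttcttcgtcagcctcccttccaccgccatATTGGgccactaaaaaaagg
CDKN2C: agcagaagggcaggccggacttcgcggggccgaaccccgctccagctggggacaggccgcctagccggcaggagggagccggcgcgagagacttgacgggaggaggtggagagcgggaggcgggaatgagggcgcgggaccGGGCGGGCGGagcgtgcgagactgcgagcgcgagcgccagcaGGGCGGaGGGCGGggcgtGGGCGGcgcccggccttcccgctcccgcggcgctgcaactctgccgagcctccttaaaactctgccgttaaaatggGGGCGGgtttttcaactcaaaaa
CDKN2D: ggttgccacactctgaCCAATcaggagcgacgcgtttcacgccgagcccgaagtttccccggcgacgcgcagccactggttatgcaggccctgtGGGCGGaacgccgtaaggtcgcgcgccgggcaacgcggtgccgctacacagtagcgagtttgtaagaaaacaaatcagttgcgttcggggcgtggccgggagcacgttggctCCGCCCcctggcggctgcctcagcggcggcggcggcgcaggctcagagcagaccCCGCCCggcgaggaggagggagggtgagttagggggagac
CDKN3: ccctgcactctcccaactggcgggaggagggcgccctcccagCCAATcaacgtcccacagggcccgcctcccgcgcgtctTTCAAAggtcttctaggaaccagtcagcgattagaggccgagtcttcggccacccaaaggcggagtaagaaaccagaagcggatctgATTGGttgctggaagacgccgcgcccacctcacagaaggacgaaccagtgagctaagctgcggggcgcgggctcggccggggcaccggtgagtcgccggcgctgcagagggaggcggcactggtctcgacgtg

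The GC box, the site read by SP1-family factors, occurred 4 times in the CDKN1A window, 6 times in the CDKN2C window shown (0 and 1 times in windows 1 and 3 of that gene), 3 times in that of CDKN2D and 1 time in that of CDKN1B, and no match was found in that of CDKN3. Of the 35116 windows in the table, 45.0% held at least 1 GC box. The CCAAT box, bound by NF-Y, was found 3 times for CDKN1B, 2 times for CDKN3, 1 time for CDKN2D and, for CDKN2C, 1 time in window 3 but not in window 1 or the one shown, and 34.6% of all windows held it. The CHR element, known from genes of late cell cycle phases, was found 1 time for CDKN3 and is present in 15.2% of all windows. The E-box, a site that MYC with MAX can bind, had no match in the windows shown and was found 1 time in each of the other CDKN2C windows, against 7.26% of all windows. No TATA box was matched, against 11.5% of all windows. The tally for CDKN2C depends on which of its windows is taken. A match is a string of letters and not a measured binding site.

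Levels of different genes were compared per length, with the deposited FPKM. The order of the 6 genes was the same in all 4 libraries: CDKN2D was highest, followed by CDKN2C, CDKN3, CDKN1B, CDKN1A and CDKN1C. In treated cells mean FPKM was 502 ± 33.3 for CDKN2D, 156 ± 17.3 for CDKN2C, 133 ± 7.55 for CDKN3, 112 ± 7.97 for CDKN1B, 57.0 ± 2.03 for CDKN1A and 2.41 ± 0.62 for CDKN1C (SD, n = 2). In untreated cells it was 87.5 ± 67.7, 49.998 ± 16.7, 34.2 ± 15.49, 27.4 ± 13.4, 11.2 ± 7.35 and 2.64 ± 0.14 FPKM in the same gene order (SD, n = 2). No neighbours in the order overlapped between the treated libraries. Between the untreated libraries the ranges of CDKN2D and CDKN2C, of CDKN2C and CDKN3, and of CDKN3 and CDKN1B overlapped, although the order held inside each library. Differences between neighbours were not tested.

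CDKN2D held the largest share of the pool in every library. Its share of the summed FPKM of the 6 genes was 52.3% and 52.0% with GNE987, against 31.1% and 45.4% in untreated replicates 1 and 2. CDKN2C made up 15.7% and 16.7% of the pool with GNE987 and 29.9% and 20.7% without. The sum of all 6 was 915 and 1011 FPKM in treated cells and 128 and 298 FPKM in untreated cells. CDKN1B stayed between 11.6% and 14.1% of the pool in every library and CDKN1A between 4.73% and 6.07%. For CDKN2D the untreated libraries were farther from each other in share than untreated replicate 2 was from the treated libraries. The difference in shares between the groups was not tested.

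**Figure D3:**
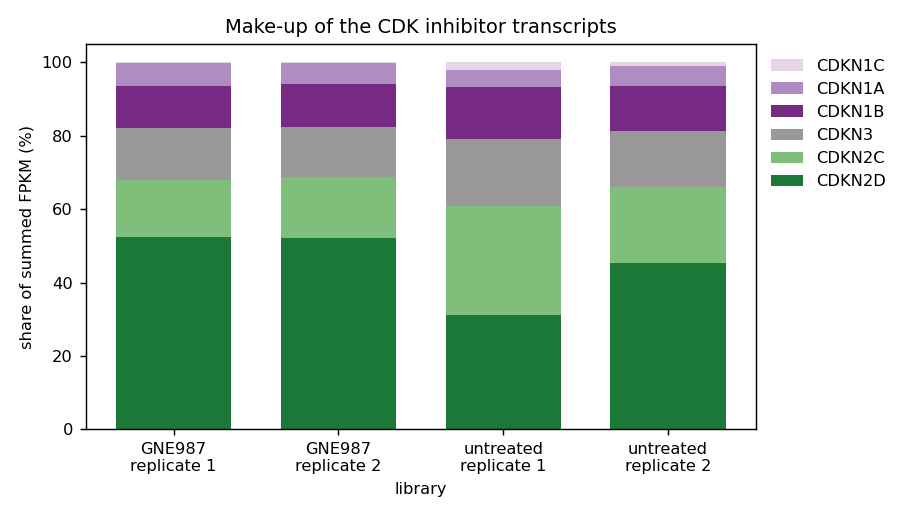
Share (%) of the summed FPKM of the 6 CDK inhibitor genes in each library, GNE987 libraries on the left and untreated libraries on the right. CDKN2D takes 52.3% and 52.0% in the treated libraries, against 31.1% and 45.4% in the untreated ones.

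Transcripts of the kinases that INK4 proteins bind moved the opposite way. CDK4, which drives G1 with cyclin D, had 15.6 and 16.02 CPM with GNE987 and 249 and 206 CPM without, a log2 fold change of -3.85 ± 0.16 (SE, adjusted p = 0.000292, edgeR). CDK6, its close relative in lymphoid cells, had 48.6 and 42.03 CPM in treated cells and 162 and 129 CPM in untreated cells, a change of -1.68 ± 0.16 (adjusted p = 0.000838, edgeR). Neither gene's groups overlapped. CDKN2C and CDKN2D together had 622 and 694 FPKM in treated cells and 77.9 and 197 FPKM in untreated cells, while CDK4 and CDK6 together had 8.77 and 8.40 FPKM with GNE987 and 92.0 and 73.5 FPKM without. The ratio of the first sum to the second was 71.0 and 82.6 in the treated libraries, against 0.846 and 2.68 in untreated replicates 1 and 2. Means of the ratio differed 43.5-fold, or 90.8-fold without untreated replicate 2 and 28.6-fold without untreated replicate 1. The exact two-sided permutation test gave p = 0.333, the smallest that 6 splits of 4 libraries can give.

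For the CIP/KIP genes over CDK1 and CDK2 the mean ratio differed 1.55-fold between the groups. CDKN1A, CDKN1B and CDKN1C together had 165 and 178 FPKM with GNE987 and 26.6 and 56.1 FPKM without. CDK1, the mitotic kinase, rose by 1.97 ± 0.32 on the log2 scale (SE, adjusted p = 0.00398, edgeR). CDK2, the kinase of the G1 to S transition, had 89.2 and 94.8 CPM in treated cells and 123 and 109.7 CPM in untreated cells, a log2 fold change of -0.34 ± 0.12 (adjusted p = 0.0503, edgeR), which passed with library size alone (0.0047), with no filter, with robust estimation and without either untreated library. The ratio of the CIP/KIP sum to that of CDK1 and CDK2 was 0.77 and 0.802 with GNE987 and 0.403 and 0.61 without (exact permutation p = 0.333). All these values are of transcripts, and protein levels were not measured.

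**Figure D4:**
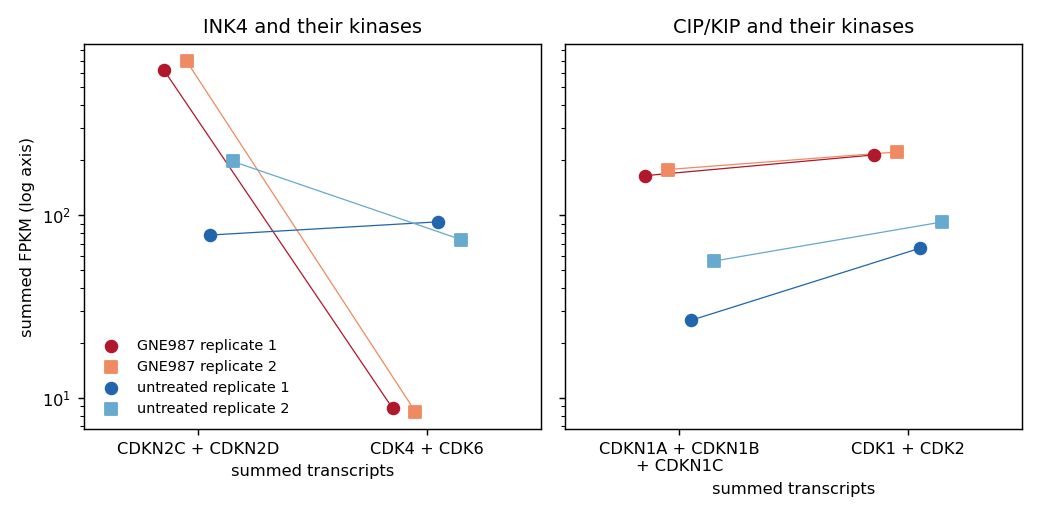
Summed FPKM (log axis) of the INK4 genes and of CDK4 and CDK6 (left panel), and of the CIP/KIP genes and of CDK1 and CDK2 (right panel), with a line joining the values of each library. INK4 transcripts lie at 622 and 694 FPKM and their kinases at 8.77 and 8.40 FPKM in the treated libraries, against 77.9 and 197 FPKM and 92.0 and 73.5 FPKM in the untreated ones.

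Genes of the wider pathway moved in both directions, as the plot of gene lists shows. The counts per list stand beside 34.4% higher and 37.2% lower over all genes tested, and no list was tested as a set. Of 17 tested cyclins and CDKs of the cell cycle, 9 rose and 5 fell. MNAT1, a subunit of the CDK-activating kinase, had 3.68 and 4.06 CPM with GNE987 and 22.1 and 20.5 CPM without. The other subunits did not fall with it. CDK7 rose by 0.69 ± 0.15 on the log2 scale, and CCNH did not pass, at -0.25 ± 0.14 (SE, adjusted p = 0.00943 and 0.148, edgeR). CCNB1, the mitotic cyclin, rose by 1.28 ± 0.17 on the log2 scale (SE, adjusted p = 0.00228, edgeR). CCND3, the main D cyclin of T cells, had 343 and 389.5 CPM with GNE987 and 589 and 532 CPM without. Its log2 fold change was -0.61 ± 0.14 (adjusted p = 0.0121), which did not pass without GNE987 replicate 1 (0.129) or GNE987 replicate 2 (0.0717). With library size alone 7 cyclin and CDK genes were higher and 7 lower, and with either treated library left out 6 were higher and 3 lower.

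Of 13 genes of the RB and E2F families, which act downstream of CDK4, CDK6 and CDK2, 7 fell and 3 rose. Over all genes tested 37.2% fell and 34.4% rose. The median change was -0.78 on the log2 scale in the list and -0.03 over all genes tested. E2F4, a repressor that works with RBL1 and RBL2, had 16.9 and 17.0 CPM with GNE987 and 193 and 164 CPM without. RBL2, a pocket protein of resting cells, fell by 1.79 ± 0.15 on the log2 scale, and TFDP2, an E2F partner, by 1.95 ± 0.14 (SE, adjusted p = 0.00057 and 0.000407, edgeR). RB1, the retinoblastoma gene, was at -0.91 ± 0.16 (adjusted p = 0.00455, and 0.0619 without GNE987 replicate 2). The 3 that rose were E2F7, an atypical repressor, by 1.27 ± 0.15, and the activators E2F3 by 1.19 ± 0.14 and E2F1 by 0.81 ± 0.15 (adjusted p = 0.0017 and 0.00576 for the activators, edgeR). Without GNE987 replicate 2, 2 genes of the list were higher and 4 lower.

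Of 13 genes of the ubiquitin machinery that marks CDK inhibitor proteins for the proteasome, 8 fell and 4 rose. Over all genes tested 37.2% fell and 34.4% rose. SKP2, which recognises p27, had 80.0 and 75.7 CPM with GNE987 and 67.7 and 70.2 CPM without (log2 fold change 0.18 ± 0.11 SE, adjusted p = 0.191, edgeR), and its direction was not fixed: the log2 fold change was -0.20 with library size alone (adjusted p = 0.227), 0.37 with upper-quartile scaling (0.0257) and 0.35 with the 10 CPM filter (0.0264). CKS1B, its cofactor for p27, rose by 1.53 ± 0.25 (adjusted p = 0.00391). CUL4A, a cullin of the ligase for p21, had 19.8 and 22.1 CPM in treated cells and 98.1 and 79.2 CPM in untreated cells. RBX1, the RING subunit shared by these cullins, fell by 1.21 ± 0.13 and PSME3, a proteasome activator known to clear p21, by 1.26 ± 0.14. The 2 genes of the ligase KPC, which acts on p27, moved apart. UBAC1 fell by 0.83 ± 0.11 on the log2 scale, and RNF123 rose by 0.52 ± 0.12 (adjusted p = 0.0127, edgeR). CDC20, which directs the anaphase-promoting complex, rose by 1.79 ± 0.33 (adjusted p = 0.00571). With either treated library left out 2 were higher and 5 lower.

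Of 25 tested transcriptional regulators of CDK inhibitor genes, 12 rose and 7 fell, against 34.4% and 37.2% of all genes tested. MYC, known to repress CDKN1A and other inhibitors together with ZBTB17, had 15.6 CPM in both treated libraries and 342 and 281 CPM in the untreated ones, a log2 fold change of -4.32 ± 0.17 (SE, adjusted p = 0.000292, edgeR). ZBTB17, also called MIZ1, had 8.40 and 8.99 CPM with GNE987 and 72.6 and 64.4 CPM without. BMI1, a Polycomb protein known as a repressor of the CDKN2A locus, fell by 1.66 ± 0.13 and GFI1, a zinc-finger repressor, by 2.37 ± 0.18. Not all listed repressors fell: HES1 rose by 2.52 ± 0.34 and ID1 by 1.36 ± 0.25 (adjusted p = 0.00224 and 0.00546, edgeR). ETS1 fell by 1.02 ± 0.13, and SP1 did not pass, at -0.09 ± 0.13 (adjusted p = 0.00211 and 0.588, edgeR). FOXO3, an activator of CDKN1B, had 98.0 and 95.9 CPM in treated cells and 17.6 and 31.3 CPM in untreated cells, a change of 1.99 ± 0.28 (adjusted p = 0.00254). The median of this list was 0.31 and turned to -0.06 with library size alone, where 9 were higher and 11 lower. The count of rises rested on both treated libraries: 6 were higher and 7 lower without GNE987 replicate 1, and 4 higher and 7 lower without GNE987 replicate 2.

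G2 and mitosis genes, among which CDKN3 is usually expressed, rose in 17 of 20 cases and fell in 1, with a median of 1.33. Over all genes tested 34.4% rose and 37.2% fell. CENPF, a kinetochore protein, had 169.9 and 158 CPM with GNE987 and 37.3 and 55.0 CPM without. NUSAP1, a spindle protein, rose by 1.91 ± 0.23 and MKI67, the proliferation antigen, by 1.63 ± 0.22 on the log2 scale (SE, adjusted p = 0.00169 and 0.00217, edgeR). The exception was BUB1B, a checkpoint kinase, which fell by 1.23 ± 0.15. CDKN3 itself, at 1.96, lay above the median of the list.

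Of the 9 listed genes around the CDKN2A locus at 9p21, 2 were analysed here. FOCAD had 5.12 and 5.07 CPM with GNE987 and 20.6 and 19.2 CPM without, a log2 fold change of -1.96 ± 0.17 (SE, adjusted p = 0.000554, edgeR). HACD4, of fatty acid elongation, was at -1.45 ± 0.27 (adjusted p = 0.00607).

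**Figure D5:**
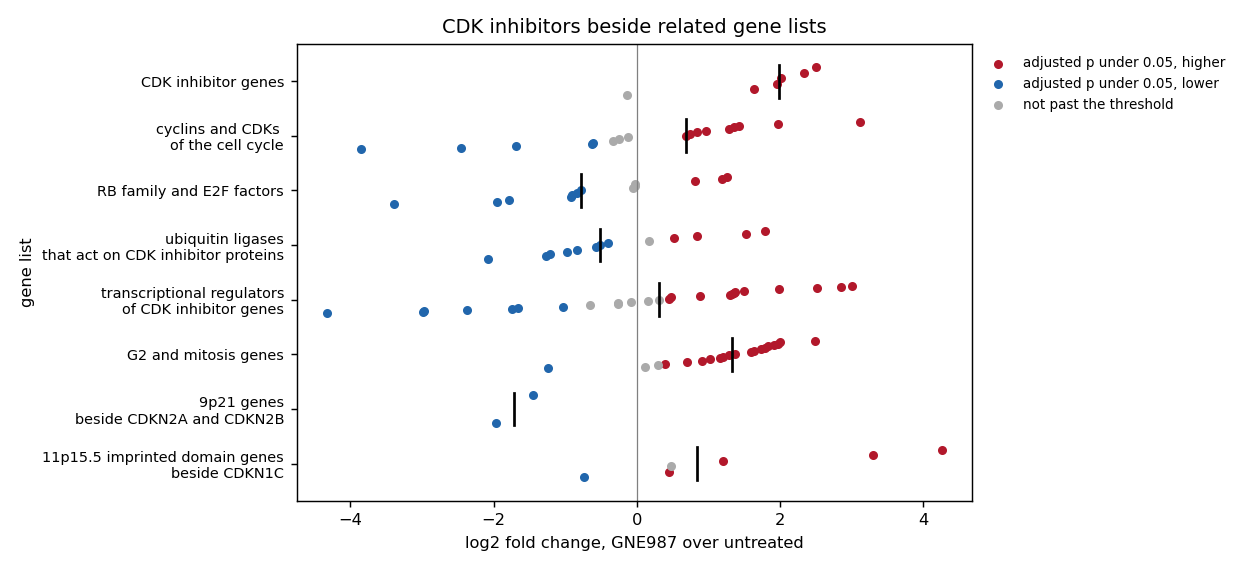
Log2 fold change, GNE987 over untreated, of each tested gene in the CDK inhibitor list (top row) and 7 related lists, coloured by whether the adjusted p was under 0.05, with a black bar at each median. The 6 CDK inhibitor genes have a median of 1.99, the 20 G2 and mitosis genes 1.33 and the 13 RB and E2F genes -0.78.

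Genes with the most similar pattern over the 4 libraries were found by the root mean square distance between log2 CPM values, each centred on the gene's own mean. Candidates averaged 10 CPM or more. For CDKN1A they were BAG3 and LENG8, at distances of 0.0173 and 0.0248. BAG3, a co-chaperone, had 143 and 151 CPM with GNE987 and 15.8 and 43.3 CPM without. CDKN1B was closest to SLC26A6 and OAZ1 (0.0183 and 0.0284), CDKN2C to FBXL5 and NCBP2-AS2 (0.023 and 0.0282), and CDKN2D to IRF7 and FAM53C (0.0333 and 0.0368). CDKN3 was closest to IER2 and TMEM129 (0.00726 and 0.00822). The distance between CDKN3 and CDKN1B was 0.0478, the smallest between any 2 of the 6 genes, and the largest was 1.59, between CDKN1C and CDKN2D. CDKN1C was closest to PTMAP5 and ZNF783 (0.0232 and 0.0548), and the PTMAP5 count is uncertain because that pseudogene resembles its parent gene. With 4 libraries and 8790 or more candidates such distances describe these libraries only.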

How the data were processed

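The submitters' processing notes list the aligner HISAT2 2.2.0 and the build hg38, and the sources used here name no counting tool, annotation or strand setting. Per the labels' protocols, TRIzol RNA went into Illumina TruSeq RNA libraries, a kit that does not mark strand. The deposited table gave whole-number counts per gene and library, which entered all tests. A deposited normalized signal was the count over a size factor of its library (0.793 to 1.27) and gave back 100% of the counts within 0.01. The deposited FPKM values matched that signal per length of the GENCODE 29 exons within 1% for 99.97% of 14653 genes. A log2 fold change, a p-value and its adjusted form stand beside each gene in the authors' deposited table, from an unnamed test.

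All 26733 identifiers matched GENCODE 29, and 20 gene names that had turned into dates were restored. Genes were kept with filterByExpr (minimum count 10, minimum total 15), scaled with TMM and tested with edgeR 4.0.16 (estimateDisp, glmQLFit, glmQLFTest) in R 4.3.3 with 2 residual degrees of freedom. The standard error is the log2 fold change divided by the square root of F, and intervals use the fit's degrees of freedom. Scripts were tested on simulated data. The floor of 3 counts lay between 0.135 and 0.217 CPM per library and, without molecular identifiers, reflects counting error only.

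The members and the 8 related lists were chosen with earlier results of these data known, and 1 of the lists and 1 further gene are not reported here. Genes named from a list were the 4 with the smallest p among called genes whose 4 treated-to-untreated library pairs all had 1 direction, plus CDK4, CDK6, CDK2, CCND3, MYC, SKP2 and RB1, and the 2 genes with the nearest pattern to each CDK inhibitor gene. CDK1, CKS1B, CDC20 and FOXO3 were added after their values were seen. So were CDK7, CCNH, E2F1, E2F3, RNF123, HES1, ID1, ETS1, SP1 and KCNQ1. Alternatives were RLE, upper-quartile and library-size scaling, no filter, a filter of 10 CPM in 2 libraries, DESeq2 1.42.0, robust edgeR, a replicate block, and leaving out every library in turn. A length scale from GENCODE exons was added after seeing the data.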

Additional observations from a re-analysis of the deposited data

How the results depend on the processing

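Leaving out each library in turn gave 6306 to 13341 changed genes in place of 11387, 3 to 5 changed CDK inhibitor genes in place of 5, and 63 to 103 changed genes of the related lists in place of 97. The low ends came without a treated library. The log2 fold change ranged from 1.71 to 3.26 for CDKN1A and from 1.80 to 3.69 for CDKN2D, and the fold between mean ratios of INK4 to CDK4 and CDK6 transcripts from 28.6 to 90.8. CDKN2D, at 2.51, did not pass with robust estimation (adjusted p = 0.0584, edgeR). With library size alone the share of higher among called genes was 36.4% in place of 48.0%. No called value of the CDK inhibitor genes or of 34 other named genes changed sign in any alternative run. CDK7, CCNH, E2F1, E2F3, RNF123, HES1, ID1, ETS1, SP1 and KCNQ1 were not part of that check. The labels do not say whether replicate numbers pair the libraries. Deviations of equally numbered replicates were uncorrelated across genes (-0.00595), which with 2 libraries per group cannot decide it. With the replicate number as a block 9801 genes, 5 CDK inhibitor genes and 95 list genes passed. TMM-scaled CPM per GENCODE exon length, in place of FPKM, gave the same ratios. That outcome was fixed: the scaling of a library cancels within a ratio, and the FPKM already matched these exon lengths. The planned scale from a deposited gene length was not run, as no length column was used here. Depth did not limit the 5 rising genes, which had 410 or more counts in every library, but limits CDKN1C at 68 to 141.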
